A study of Mus musculus with 4 samples.

Results

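The receptor chains, kinases and STAT5 factors through which interleukin (IL)-15 acts were examined in the m6A peak list of mouse natural killer (NK) cells. The set was fixed by name and held 10 genes, namely the receptor chain genes Il2rb, Il2rg, Il2ra and Il15ra, the cytokine gene Il15, the kinase genes Jak1, Jak2 and Jak3, and the transcription factor genes Stat5a and Stat5b. A peak belonged to the set when the gene identifier given by the authors was that of a listed gene in the GRCm38 annotation, which gave 16 of 20727 distinct peaks. The list came from methylated RNA immunoprecipitation sequencing (MeRIP-seq), in which poly(A) RNA is broken into short pieces, an antibody against N6-methyladenosine (m6A) captures the pieces that carry the mark, and captured and uncaptured (input) RNA are sequenced. Per the labels there were 2 groups of 2 libraries, the m6A immunoprecipitates and the inputs, all from splenic NK cells of C57BL/6 mice. According to the methods of the study, these were cells sorted by flow cytometry after an injected plasmid, pLIVE-IL-15, had been used to expand the NK cells in the mice. Neither the labels nor the description of the MeRIP-seq experiment states a genotype. By the methods of the study, both groups came from animals exposed to excess IL-15, and animals without the plasmid were not analysed here. No group is labeled as lacking the m6A writer METTL3, and no comparison by genotype was possible. The labels give no age or sex, and the methods give an age range in weeks only for the mice of the study as a whole. The sources used here do not say whether animals were pooled.

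IL-15 is held by its α chain (Il15ra) on a neighboring cell and presented to NK cells that carry the β chain (Il2rb, CD122) and the common γ chain (Il2rg, CD132). JAK1 sits on the β chain and JAK3 on the γ chain, and together they phosphorylate STAT5A and STAT5B, which then enter the nucleus and switch on genes for survival and growth. NK cells depend on this route for their development and maintenance. The mark m6A is written by a METTL3-containing complex at adenosines that follow a purine and precede a cytosine, with any base but C before and any base but G after them. This context is written DRACH, its form GGACT is favored, and the mark can change how long an mRNA lasts and how well it is translated.

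The following windows show candidate methylation contexts in peaks of 5 of the genes, since the peaks themselves are too wide to name a base. Each window is 25 nt of the sense strand in GRCm38, with the motif in capitals. It is the GGACT nearest to the center of the peak or, where the peak held none, the nearest other DRACH site. The windows include each of the 4 peaks of the set that held GGACT, while most peaks without it are not shown. The more enriched Jak1 peak, which held no GGACT, is among those left out. The windows therefore do not show how common GGACT is in the set. A motif in a peak is a description of the sequence and not a mapped m6A site.

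Il2rb, 3' UTR, chr15:78480628-78480652, minus strand: ccaccgagctGGACTtgagtgtacg

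Il2rb, coding sequence, chr15:78481701-78481725, minus strand: cctgcatgagGGACTtccctcccta

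Jak1, 3' UTR, chr4:101153169-101153193, minus strand: gcatagcaaaGGACTgtgccgctgg

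Jak2, 3' UTR, chr19:29312849-29312873, plus strand: agcgtctcccAGACAgatgggaagg

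Jak3, 3' UTR shared with Insl3, chr8:71690474-71690498, plus strand: cagtaagcaaGGACCacaggccctg

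Stat5b, 3' UTR, chr11:100781341-100781365, minus strand: caggcttaagGGACTcgtccccacc

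Peaks were found on 7 of the 10 genes, and none of these genes reached a fold enrichment of 5. The genes with a peak were Il2rb, Il2rg, Jak1, Jak2, Jak3, Stat5a and Stat5b, and no peak was listed for Il2ra, Il15ra or Il15. For comparison, 46.3% of 21951 protein-coding genes had a peak. A peak can be called only where a transcript is present, and no expression value was analysed here, so absence of a peak does not separate an unmethylated transcript from one that was scarce. At least 2 peaks were listed for 6 of the 7 genes, against 46.7% of protein-coding genes with a peak.

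The fold enrichment is the ratio of immunoprecipitate to input reads that the authors' peak caller gave each peak, and the significance is the log10 of its p-value without adjustment. Each peak has 1 value of each, with none per library, so no error between replicates could be given. None of the 16 peaks reached a fold enrichment of 5, whereas 34.6% of all peaks did. A fold enrichment of at least 2 was listed for 4 of the 16 peaks, against 63.9% of all peaks. The median was 1.47 (range 1.26 to 3.79), beside 2.66 over all peaks and 2.37 over peaks of protein-coding genes. These comparisons were not matched for significance or for read coverage, which the list does not give. Significance ran the other way. A p-value under 0.001 was given to 15 of the 16 peaks, against 61.5% of all peaks, and the median log10 p was -8.38 beside -4.10 over all peaks. In the plot of fold enrichment against significance the peaks of the set therefore lie at the left, at low fold enrichment, and reach high into the significance range.

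**Figure D1:**
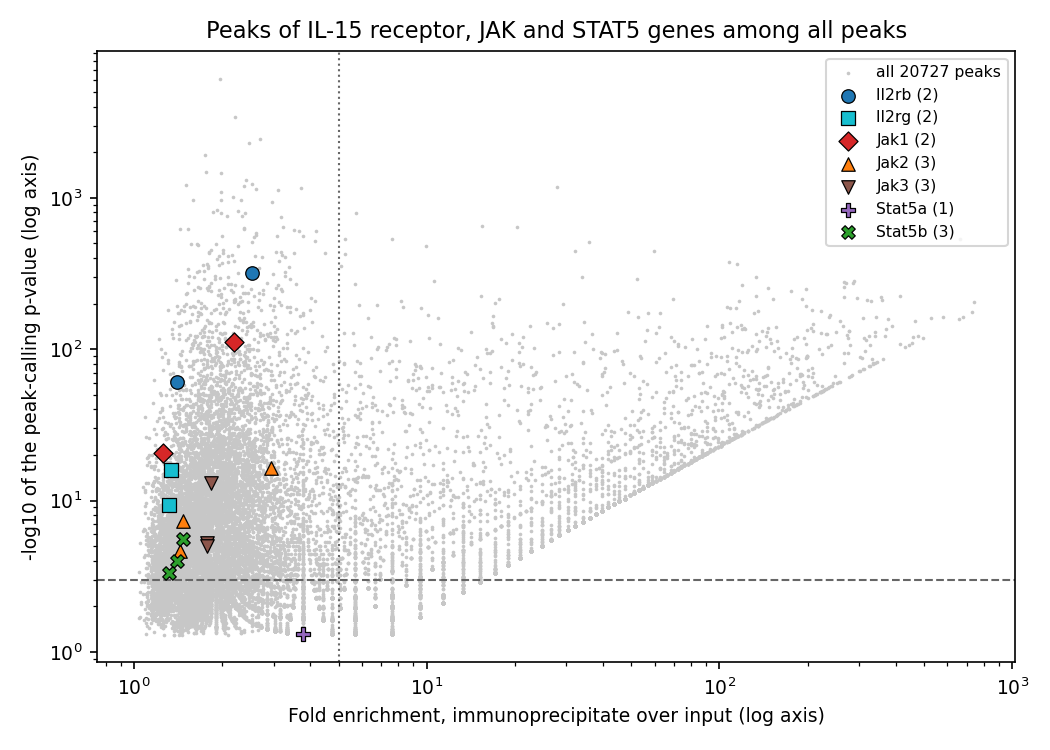
Fold enrichment of each peak (x axis, log scale) against the -log10 of its p-value (y axis, log scale) for all 20727 peaks (gray) and the 16 peaks of the set (colored by gene, peaks per gene in brackets). The dotted line marks a fold enrichment of 5 and the dashed line a p-value of 0.001, and of the 16 peaks none lies right of the first and only the Stat5a peak lies below the second.

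Among the receptor chains, Il2rb stood out for significance. Il2rb (ENSMUSG00000068227, chromosome 15, minus strand) encodes the signaling chain that IL-15 shares with IL-2. Its first peak (78480553 to 78481092, 540 nt) was 3' UTR within exon 10, the last exon, 384 to 923 nt downstream of the stop codon. It was enriched 2.53-fold with log10 p = -316. By p-value it ranked 101 among the 20727 peaks, while 48.1% of peaks had a lower fold enrichment. The second peak (78481601 to 78481990, 390 nt) lay upstream in the coding part of the same exon and was enriched 1.40-fold with log10 p = -60.3. It covered codons 369 to 499 of 540 (stop codon included), in the stretch that encodes the cytoplasmic tail, the part of the chain that recruits STAT5. A gap of 508 nt that held the stop codon separated the peaks. The shorter of its 2 coding isoforms carried the coding peak but not the 3' UTR peak.

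Il2rg (ENSMUSG00000031304, X chromosome, minus strand), which encodes the common γ chain used also by the receptors for IL-2, IL-4, IL-7, IL-9 and IL-21, had peaks at its ends. The first (101267797 to 101268225) covered 239 nt of exons 1 and 2, of which 56 nt were 5' UTR and 183 nt coding, down to codon 61 of 370. It was enriched 1.32-fold with log10 p = -9.38. This stretch encodes the signal peptide and the start of the extracellular part. The second (101264378 to 101264438) was the last 61 nt of the transcript, enriched 1.34-fold with log10 p = -16.0. The peaks thus had nearly the same fold enrichment, and 5.91% and 6.65% of all peaks were lower. The transcript of Il2rg held 0 GGACT sites.

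The α chains and the cytokine had no peak. Il2ra encodes the α chain of the IL-2 receptor. Its longest coding transcript had 4412 nt, with the longest 3' UTR of the 10 genes (3411 nt), and held 88 DRACH and 4 GGACT sites. Il15ra held 50 DRACH and 0 GGACT sites in 1936 nt, and Il15 held 41 and 2 in 1908 nt. Per kb of transcript these genes had 19.9, 25.8 and 21.5 DRACH sites, within the 14.4 to 26.3 of the 7 genes with a peak. The density of the motif therefore did not separate genes with and without a peak. No peak that named another gene touched an exon of these 3 genes.

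The kinase genes carried 8 of the 16 peaks. Jak1 (ENSMUSG00000028530, chromosome 4, minus strand) encodes the kinase bound to the β chain and had 2 peaks in its last exon, exon 25. The peak at the transcript end (101152367 to 101152847, 481 nt) was enriched 2.19-fold with log10 p = -111, which was stronger than for 97.8% of all peaks. The other (101153087 to 101154254) spanned the stop codon, with 96 nt of coding sequence and 408 nt of 3' UTR, and was enriched 1.26-fold with log10 p = -20.7. Its coding bases were codons 1123 to 1154, the C-terminal end of the kinase domain. Of the 16 peaks this one had the lowest fold enrichment, and it held 2 GGACT sites. The peaks were 239 nt apart. At its outer end the first peak shared 4 nt with the gene Raver2 on the opposite strand.

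Jak2 (ENSMUSG00000024789, chromosome 19, plus strand) encodes a kinase used by other cytokine receptors, such as those for interferon γ and hematopoietic growth factors. It had 3 peaks, all within the 3' UTR of 1232 nt. The first (29311853 to 29312062, 210 nt) began 5 nt past the stop codon and was enriched 1.47-fold (log10 p = -7.37). A middle peak (29312122 to 29312362, 241 nt) followed after 59 nt, enriched 1.44-fold (log10 p = -4.63). The third (29312631 to 29313050, 420 nt) ended 30 nt before the transcript end and was enriched 2.94-fold (log10 p = -16.5). The last was thus the most enriched and the most significant of the 3. Its fold enrichment was the highest among the peaks of the set that overlapped a protein-coding isoform. The isoform Jak2-204 ended inside the middle peak and did not contain the third.

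Jak3 (ENSMUSG00000031805, chromosome 8, plus strand) encodes the kinase bound to the γ chain, whose expression is largely limited to blood cells. Its 3 peaks lay at alternative ends of the mRNA. One peak (71688065 to 71688334, 270 nt) was enriched 1.83-fold with log10 p = -13.0. In 2 of the 3 coding isoforms all 270 nt were in the last exon, exon 24, with 83 coding nt up to the stop codon and 187 nt of 3' UTR. In the longest isoform exon 24 is spliced to exon 25 shortly after the stop codon and 98 nt of the peak were exonic. The other listed peaks (71690336 to 71690575 and 71690338 to 71690575) differed by 2 nt at the start, each had a fold enrichment of 1.78, and their log10 p values were -5.25 and -5.02. They cover 1 region of exon 25, an exon that belonged to the longest isoform alone. That region was also exonic in Insl3, a peptide hormone gene on the same strand. All 191 of its 50-nt words occurred in Insl3 transcripts, so the reads of Jak3 and Insl3 cannot be told apart there. No 50-nt word in the peaks of Il2rb, Il2rg, Jak1, Jak2 and Stat5b, or in the other Jak3 peak, occurred in a transcript of another gene.

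The STAT5 genes are neighbors on chromosome 11 and encode closely related factors, but their peaks differed. Stat5b (ENSMUSG00000020919, minus strand) had 3 peaks at the far end of its 3' UTR of 2365 nt. They ran from 1706 to 1796, 1856 to 1946 and 2006 to 2335 nt past the stop codon, with gaps of 59 nt each. Their fold enrichments were 1.47, 1.32 and 1.40, and their log10 p values were -5.57, -3.31 and -3.96. These enrichments were low within the list, as 12.6%, 5.91% and 9.38% of all peaks lay below them. All 3 peaks were present in both coding isoforms.

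Stat5a (ENSMUSG00000004043, plus strand) had 1 peak of its own, and it lay on no coding isoform. The peak (100877186 to 100879226, a span of 2041 nt) had the highest fold enrichment of the set, 3.79, and its weakest p-value (log10 p = -1.31). It fell within intron 12 of Stat5a as its longest coding isoform defines it and covered 0 nt of the 5 coding isoforms. The authors' label for it was exon, and it overlapped 208 and 123 nt of 2 transcripts of Stat5a that are annotated without a coding sequence.

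A further peak lay on the Stat5a mRNA but was named for Stat3, a gene that meets Stat5a end to end from the opposite strand. This peak (100884779 to 100885109, 331 nt) was enriched 2.43-fold with log10 p = -7.61. All 331 nt were in exon 20 of Stat5a, centered 948 nt past its stop codon and ending 60 nt before its transcript end, whereas 12 nt were exonic in Stat3. It was not counted in the set, because the rule follows the gene identifier given by the authors. Whether the libraries kept the strand of the RNA is not given in the sources used here. Counted by exon overlap in place of the identifier, the set would hold 17 peaks.

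**Figure D2:**
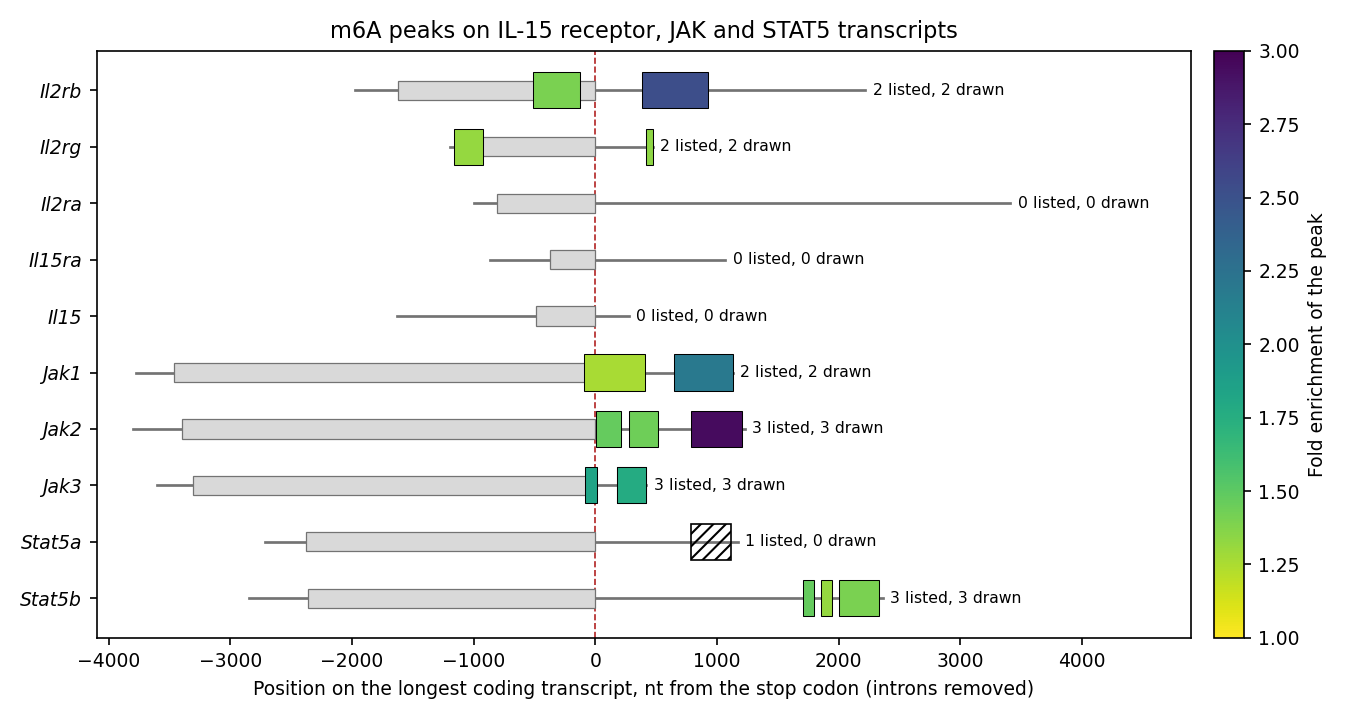
Longest coding transcript of each of the 10 genes, aligned at the stop codon (dashed line, x axis in nt), with UTRs as lines, coding sequence as gray boxes and peaks as boxes colored by fold enrichment (scale at right). The hatched box on Stat5a is the peak named for Stat3, the intronic Stat5a peak cannot be drawn, and the near-identical Jak3 peaks overlie each other. Peaks crowd the last exon, and the most enriched peaks of Il2rb, Jak1 and Jak2 lie in the 3' UTR apart from the stop codon.

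The position of the peaks was read from the center of their exonic part on the longest coding transcript, which was possible for 15 of the 16 peaks in 6 genes. The center lay in the 3' UTR for 12 and in the coding sequence for 3, against 56.5% of 15706 placed peaks in the 3' UTR. The region column of the authors gave 3' UTR for 13 of the 16 peaks, against 53.3% of all peaks. The center lay in the last exon for 13 of the 15, against 66.7% of placed peaks. It lay within 200 nt of the stop codon for 3, one each in Jak1, Jak2 and Jak3, against 22.3% of placed peaks. In 5 of the 6 genes, all but Il2rb, a peak ended within 50 nt of the annotated transcript end. This held for 6 of the 15 peaks, against 27.4% of placed peaks. The 6 include both near-identical Jak3 peaks, whose region is shared with Insl3 and belongs to the longest Jak3 isoform alone. No share per gene over the whole list is given here for the count of 5, so it is not read as a trait of these genes. The limit of 50 nt was chosen after the values were seen. Among peaks centered in the 3' UTR the median fold enrichment was 1.47 for the 12 of the set and 2.02 for all 8881. Peaks of 1 gene share reads and transcript, so these counts describe 6 transcripts and not 15 independent regions.

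The share of transcript inside peaks also differed between the genes. It was 22.2% for Il2rb, 20.1% for Jak1, 18.0% for Il2rg, 17.3% for Jak2, 9.82% for Stat5b and 8.41% for Jak3. The most significant genes, Il2rb and Jak1, were also those with the largest covered share.

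The density of DRACH sites was lower inside the peaks than in the rest of the transcript in 5 of the 6 genes, a difference for which no test was run. How often this holds over all genes with a peak is not given here, so the count has no baseline. The 2 parts were not matched by region, as 12 of the 15 peak centers lay in the 3' UTR. The 3936 nt inside peaks held 71 DRACH sites (18.0 per kb), and the remaining 21096 nt of the 6 transcripts held 433 (20.5 per kb). All placed peaks had 20.2 per kb. Il2rg was the exception, with 23.3 per kb inside its peaks and 12.4 outside, from 7 and 17 sites. In Il2rb the densities were 15.1 and 17.8, in Jak1 24.4 and 26.8, in Jak2 18.4 and 23.6, in Jak3 11.8 and 20.6, and in Stat5b 11.7 and 16.8. For GGACT the densities inside and outside were 2.15 and 1.53 per kb in Il2rb, 2.03 and 1.28 in Jak1, and 1.95 and 1.06 in Stat5b, from 2, 2 and 1 sites inside, so they were higher inside in these 3 genes. Jak2 and Jak3 had 0 GGACT sites inside and 4 and 10 outside, and over the 6 transcripts the densities were 1.27 and 1.37 per kb. GGACT was found in 4 of the 15 placed peaks, against 26.6% of placed peaks. These were both Il2rb peaks, the stop codon peak of Jak1 and 1 peak of Stat5b. Among placed peaks within 10% of the length of each, GGACT was present in 44.4% and 33.7% for the Il2rb peaks, in 44.0% for the Jak1 peak and in 10.1% for the Stat5b peak. The most enriched peaks of Jak1 and Jak2 held no GGACT but 11 and 8 DRACH sites. Of the 10 GGACT sites of Jak3, 9 were coding. Motifs were counted on the sense strand, since m6A lies on the transcript, and every GGACT is also a DRACH site.

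**Figure D3:**
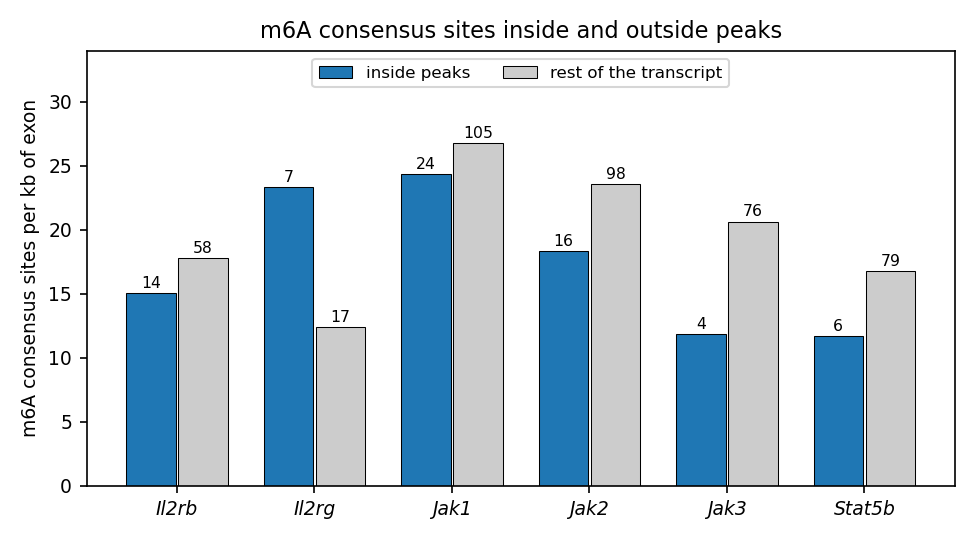
DRACH sites per kb of exon (y axis, from 0) inside the peaks (blue) and in the rest of the longest coding transcript (gray) of the 6 genes with a placed peak, with the number of sites above each bar. The bar inside peaks is the lower one in each gene but Il2rg, which has 23.3 against 12.4 per kb.

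The IL-15 receptor genes were set beside 37 related genes in 5 groups. Of the 37, 29 (78.4%) had a peak, against 46.3% of protein-coding genes. A peak also needs a transcript to be present, and no expression value was analysed here. A fold enrichment of at least 5 was reached by 8 of these 29 genes (27.6%), against 43.4% of 10174 protein-coding genes with a peak and 0 of the 7 genes above. It was 5 of the 29 when such a peak also had to have a p-value under 0.001, and 5 when it had to overlap an exon of a coding isoform. The median of the strongest fold enrichment per gene was 2.77 in the 29 genes, 2.19 in the 7 and 3.79 in all protein-coding genes with a peak.

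Among the other JAK and STAT genes, none reached a fold enrichment of 5. The highest value was 2.60 at Stat3, which carries signals of the IL-6 and IL-10 families, and the lowest was 1.21 at Stat2, which acts in the response to type I interferon.

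Among the other cytokines and receptors of the γ chain family, 3 of 9 (33.3%) had a peak, against 46.3% of protein-coding genes. No peak was listed for the cytokines Il2, Il4, Il7, Il9 and Il21 or for the receptor Il9r. The receptor Il21r had a 3' UTR peak of 270 nt, enriched 11.9-fold with log10 p = -82.8 and centered 444 nt past the stop codon. Il7r reached 3.06 and Il4ra 1.31. Il21r thus exceeded every peak of the IL-15 receptor chains, with which it shares the γ chain.

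Of the adaptors that join receptors to RAS and PI3K, Gab2 and Sos1 had no peak, while Shc1 reached 9.48, Grb2 6.64 and Irs2, the lowest, 3.79. All 9 brakes on the pathway had a peak, against 46.3% of protein-coding genes. The highest values among them were 81.6 at Cbl, a ubiquitin ligase, and 15.2 at Socs2, a suppressor of cytokine signaling, and the lowest was 1.92 at Ptprc, the phosphatase CD45. The 15.2 peak of Socs2 had log10 p = -2.91 and overlapped 0 nt of a coding isoform. All 8 genes known as STAT5 targets had a peak, against the same 46.3%. The highest values were 125 at the survival gene Bcl2 and 9.48 at the cyclin gene Ccnd2, and the lowest was 1.52 at the kinase gene Pim2. The Ccnd2 value came from a peak with log10 p = -1.69 that also overlapped 0 nt of a coding isoform. In several genes above 5 the most significant peak was a less enriched one. It had a fold enrichment of 2.02 at Cbl, 2.35 at Socs2, 2.23 at Shc1, 2.08 at Grb2 and 2.19 at Ccnd2. At Bcl2 it had 9.75 and at Il21r 11.9. In the set the median over the most significant peak of each gene was 2.19, and that of the related genes was not higher. The higher median of the related genes thus held for the strongest peak of each gene and not for the most significant one. Of the 12 peaks with a fold enrichment of at least 5 in the related genes, 7 overlapped an exon of a coding isoform.

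**Figure D4:**
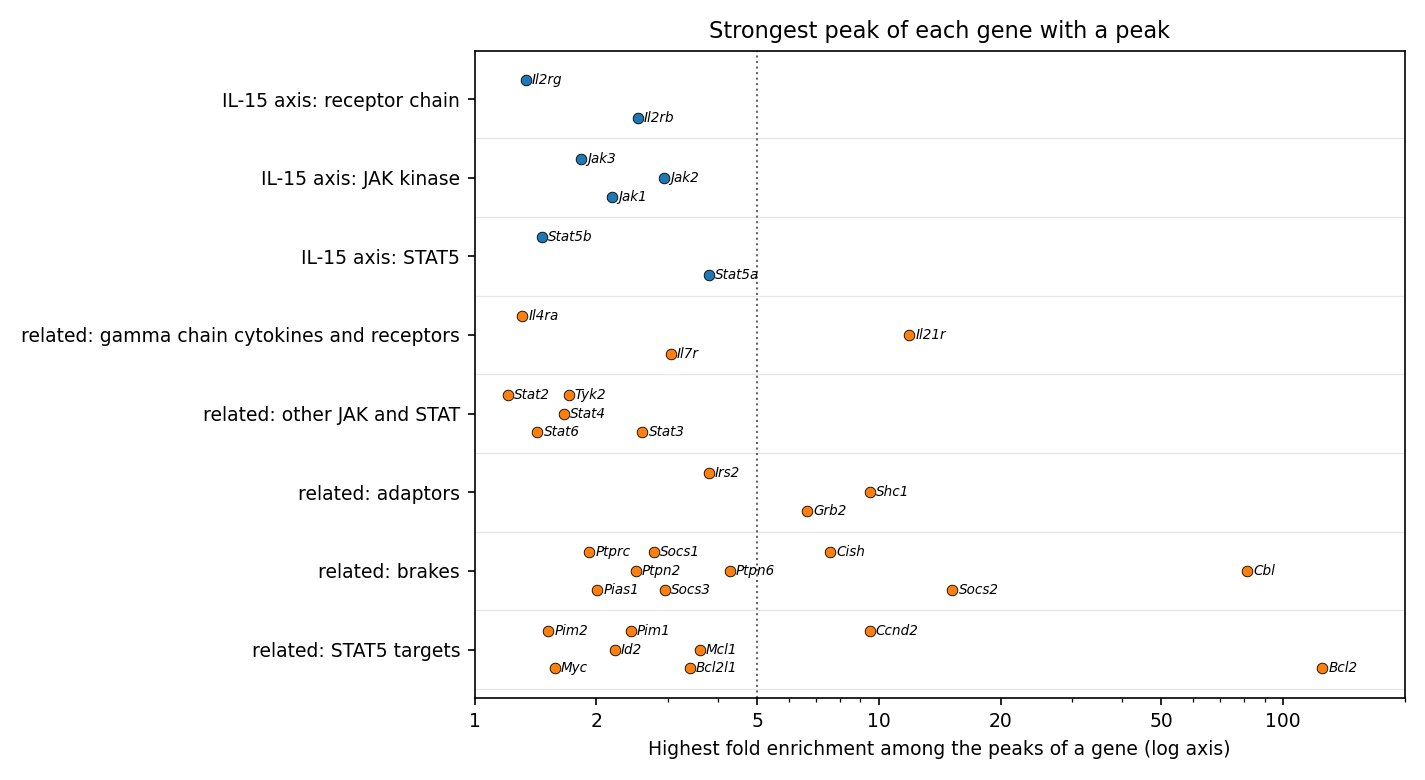
Highest fold enrichment among the peaks of each gene (x axis, log scale) for the 7 genes of the IL-15 axis with a peak (blue) and for related genes with a peak (orange), 1 point per gene, with rows for the groups and 1 related gene left out. The dotted line marks a fold enrichment of 5, which is passed by 8 related genes and by none of the 7.

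Markers of cell types were read from the same list for the presence of a peak, which cannot by itself show which cells were present. All 8 NK markers tested had a peak, against 46.3% of protein-coding genes, with strongest fold enrichments from 1.36 to 2.50. Peaks were also listed for 4 of 4 myeloid markers (strongest fold enrichments 1.38 to 1.90). At the most significant peak, log10 p was -322 at Csf1r, -143 at Lyz2, -121 at Itgax and -35.3 at Adgre1. For the NK markers it ran from -25 at Ncr1 to -165 at Gzmb. Among T cell markers, 3 of 5 had a peak (5.69 at Cd3d, 30.3 at Cd3e and 31.6 at Cd3g, while Cd4 and Cd8a had none). The 5.69 peak of Cd3d had log10 p = -1.63, and the 31.6 peak of Cd3g overlapped 0 nt of a coding isoform. The most significant peaks of Cd3d and Cd3g were enriched 2.55-fold and 3.79-fold. Of the B cell markers, Cd79a had a peak (fold enrichment 7.59, log10 p = -9.11) and Ms4a1 had none. A peak is no measure of expression, and the part of other cells in the peaks of the set was not tested.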

How the data were processed

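Poly(A) RNA of splenic NK cells was profiled by MeRIP-seq in 2 m6A immunoprecipitates and 2 inputs. The authors trimmed reads, aligned them with HISAT2 (version 1.0 in the submitters' processing notes) to GRCm38, called peaks with exomePeak and annotated them with ChIPseeker (1.0). The deposited list gives each peak a fold enrichment, a ratio of immunoprecipitate over input, and a score, the log10 of the p-value without adjustment. It holds 0 columns per sample, so depth is unknown, how replicates were combined is not given in the sources used here, and no test was run. The planned test of counts per sample could not be run.

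Of 20751 rows, 24 repeated another and were dropped. Of 12351 gene identifiers, 12332 were found in GENCODE M21 (GRCm38). Peaks were placed on the longest coding transcript by the center of their exonic part (15706 peaks, 75.8%). Distances count from the last base of the stop codon. Placement and motif search were tested on 2000 simulated transcripts, of which 100% were recovered. Intervals used to judge alternatives are 95% Wilson intervals for shares and motif densities, and order-statistic intervals for medians. They cover counting error only.

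The genes, lists and rules were chosen with earlier results of these data known. Every peak of the 10 genes is named. Of each related group, the genes without a peak, the 2 highest and the lowest are named, except that certain items are not reported here. Python 3.11.15 and pandas 2.3.3 were used.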

Additional observations from a re-analysis of the deposited data

How the results depend on the processing

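Of 34 alternative values for 9 results, 24 stayed within 1.5 times a count or within the interval of a share, density or median, 10 moved and 0 reversed. The intervals treat peaks of the same gene as independent, which they are not. The median fold enrichment rose from 1.47 to 2.19 with the strongest or the most significant peak of each gene. It was counted as unchanged because 2.19 was the upper end of its interval. The number of genes with a peak was 6 at a p-value under 0.001 and also when an exon of a coding isoform was required. At a fold enrichment of at least 2 it fell from 7 to 4, and the number of peaks from 16 to 4. At a threshold of 3 in place of 5, 1 peak of the set (Stat5a) and 13 related genes passed, and at 10, 4 related genes did. The share of peaks centered near the stop codon was 3 of 15 at 200 nt, 6.67% at 100 nt and 46.7% at 400 nt, and at 200 nt it was 8.33% of 12 peaks by the center of the genomic span. Motif density was 17.7 DRACH sites per kb summed over peaks, 12.8 in the 100 nt around their centers, 2.40 for GGACH and 1.20 for GGACT, which are rarer by construction. The thresholds act by definition, and for the density around the center the cause was not tested. Counting peaks by exon overlap (17) or without those wholly on Insl3 exons (14) was chosen after seeing the data. No paired analysis was possible because values per library are lacking in the list, even though replicate numbers are shared by both groups. Leaving out each replicate and a test of counts with its scalings and filters were not run for the same reason, and the unknown depth limits the weaker peaks, such as that of Stat5a.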
